A study of Mus musculus with 18 samples.

Results

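Replication-dependent histone genes encode the linker histone H1 and the core histones H2A, H2B, H3 and H4 that package newly copied DNA. The family was taken as every gene of the count table whose symbol starts with Hist1h, Hist2h, Hist3h or Hist4h. This gave 56 of the 11243 genes: 5 of H1, 14 of H2A, 14 of H2B, 10 of H3 and 13 of H4. RAW264.7, a line of mouse macrophages, was the source of all RNA, so that 1 line stands for macrophages and its cultures for replicates. Control cells received the vehicle DMSO and no LPS, the LPS cells received 500 ng/mL of lipopolysaccharide for 6 h, and the third group received torin1, which inhibits the kinase mTOR, at 100 nM from 15 min before the same LPS treatment. The 9 lysates (3 experiments of 3 treatments) were each divided into total mRNA and the mRNA of pooled heavy polysomes, which makes 18 libraries. The libraries were made from total RNA after removal of ribosomal RNA, without selection for a poly(A) tail.

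Most mRNAs of this family are not polyadenylated. They end behind a short hairpin that is bound by the stem-loop binding protein, encoded by Slbp, which acts in the processing, translation and stability of the message. The mRNAs accumulate when a cell copies its DNA in S phase, are degraded at its end, and are transcribed from gene clusters under the coactivator encoded by Npat. The family was chosen by the values of LPS against control, since several members were lower in polysome-associated mRNA with LPS. Every value of LPS against control below is therefore a description without a test. The comparisons with torin1 and of polysome-associated against total mRNA were tested, though all but 1 of them contrast libraries of that observation. The p-values of that 1 still rest on a model that includes those libraries.

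The hairpin is shown first because it is the mark that the symbols did not use. In the GENCODE transcripts of GRCm38, a window after the stop codon was searched for 16 bases that start with GG, pair perfectly over a stem of 6 bases and hold a loop of 4 bases that starts with T. Such a hairpin was found in 38 of the 43 members with at least 16 annotated bases after the stop codon, each time within the first 100 bases. Among 10618 other genes of the table, 11 had it there, which is 0.104%. A further 12 members have under 16 annotated bases after the stop codon, and Hist1h2al, annotated as a processed pseudogene, has no coding transcript. The windows of the most counted members of H2A, H2B, H3 and H4 and of a pair of exceptions described further on, Hist3h2a and Hist2h3c2, read as follows, with the hairpin in capitals.
Hist2h2ac: aaaaaGGCTCTTTTTAGAGCCaccaaatct
Hist1h2bb: ccaaaGGCTCTTTTAAGAGCCacccacact
Hist1h3e: aaaacGGCTCTTTTAAGAGCCacctccatt
Hist1h4d: ccaaaGGCCCTTTTCAGGGCCactaccttc
Hist3h2a: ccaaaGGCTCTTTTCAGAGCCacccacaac
Hist2h3c2: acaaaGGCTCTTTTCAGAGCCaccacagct

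The hairpins fell into 8 sequences, of which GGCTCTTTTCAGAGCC occurred in 19 members of H1, H2A, H2B and H3, and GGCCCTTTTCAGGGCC in 7 members, all of H4. Hist1h1a, which took the most reads of the family, has 48 annotated bases after its stop codon and no match to this search. Behind the hairpin, 20 members carry more than 100 further annotated bases, up to 4884 in Hist1h1d, and 10 members have AATAAA, the core of the polyadenylation signal, in the last 40 annotated bases. The deposited counts sum over a gene, so reads from a short and an extended transcript cannot be told apart.

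Near-identical copies make the count of a single gene uncertain. Of all windows of 50 bases along a member's exons, a median of 49.6% also occurred in transcripts of another gene. In 27 members more than 50% did. Matches on either strand were counted, and so were genes that overlap the member, so these shares are not of copies alone. With windows of 100 bases the median was 32.5% and the number of such members 20. H1 genes shared least, with a median of 2.25% of windows of 50 bases, against 39.5% in H4, 46.9% in H2B, 57.2% in H3 and 65.9% in H2A. Each H2A gene has an annotated gene on its other strand, so the order of classes is not one of copies alone. Hist2h2ab, which overlaps Gm15444, shared 64.8% of windows at 88.55% identity to its nearest member. Hist1h4n and Hist1h4m have the same coding sequence over all 312 bases. The first 120 coding bases of Hist1h4d, the H4 gene with the most reads, and of its closest H4 copy of equal length, Hist1h4j, show how such copies differ, with the 13 differing bases in capitals.
Hist1h4d: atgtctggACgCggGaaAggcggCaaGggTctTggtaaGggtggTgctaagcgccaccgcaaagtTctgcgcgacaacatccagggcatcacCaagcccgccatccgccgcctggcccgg
Hist1h4j: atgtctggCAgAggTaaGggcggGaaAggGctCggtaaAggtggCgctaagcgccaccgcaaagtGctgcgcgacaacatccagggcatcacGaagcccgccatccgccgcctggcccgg
Over all 312 coding bases this pair was 94.23% identical, which makes Hist1h4d one of the better separated H4 genes. The closest copies of the H2A genes reached 99.49% and those of the H3 genes 99.27%. Coding sequences were compared only among the members, so closer copies outside the count table would be missed. How the authors' counting treated reads with several matching places is not given in the sources used here. Sums over a class do not depend on how reads were split within it, so class sums stand beside the genes below. They can still depend on reads that match genes of another class or outside the table, as where Hist1h1e and Hist1h2be overlap. If such reads were left out instead, the sums lack them too, and more so in the classes that share more.

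Of the members, 49 lie on chromosome 13, all but Hist1h2al between chr13:21715763 and chr13:23764406. On chromosome 3 there are 5 members (chr3:96219865-96263311), with Hist3h2a on chromosome 11 (chr11:58954685-58956830) and Hist4h4 on chromosome 6 (chr6:136801553-136804415). The coding sequences span 312 to 672 bases, and 4 members have more than 1 exon. An annotated gene overlaps 4 members on the same strand and 15 on the other strand, among them Hist1h1e and Hist1h2be, which overlap each other. Because the clustered genes are transcribed together, the 250 bases before the start of transcription (RefSeq, GRCm38.p6) were searched on both strands in the 49 members with an entry. CCAAT occurred in 39 of them (79.6%), against 33.8% of all 32851 promoters, TATAAA in 25 (51.0%, against 12.4%), and the octamer ATTTGCAT in 10 (20.4%, against 1.6%). None of these motifs contains another. The octamer was found in 6 of 13 H2A and 4 of 12 H2B promoters and in none of the 4 H1, 8 H3 and 12 H4 promoters. Neighbouring H2A and H2B genes on opposite strands can share promoter bases, as Hist1h2ah does with Hist1h2bk and Hist1h2ae with Hist1h2bg. A site in shared bases counts for both genes, for the octamer as for the other motifs. CCAAT was found in 3 of the 12 H4 promoters and in 36 of the other 37. The promoters of the most counted H2B gene, which holds all 3 motifs, and of the most counted H4 gene, 1 of the 3 H4 promoters with CCAAT, are shown with the motifs in capitals on either strand.
Hist1h2bb, chr13:23746484-23746733, plus strand: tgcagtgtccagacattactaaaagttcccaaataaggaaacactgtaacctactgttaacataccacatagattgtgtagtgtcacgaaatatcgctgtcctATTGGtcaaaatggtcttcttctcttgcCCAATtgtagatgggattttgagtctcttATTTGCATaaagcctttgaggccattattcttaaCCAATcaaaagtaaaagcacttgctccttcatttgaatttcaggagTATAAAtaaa
Hist1h4d, chr13:23581318-23581567, plus strand: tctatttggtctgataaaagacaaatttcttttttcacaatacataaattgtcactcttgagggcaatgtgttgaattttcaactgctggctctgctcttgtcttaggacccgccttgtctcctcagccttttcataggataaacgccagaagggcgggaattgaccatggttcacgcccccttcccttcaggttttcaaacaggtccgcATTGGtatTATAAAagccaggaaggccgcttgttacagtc
These motifs are descriptions of letters, not of bound sites.

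The counts of a library summed to between 27800983 and 47725557. Of the 12 macrophage markers listed, 11 were in the table, and of 8 markers of T, B, epithelial, endothelial and fibroblast cells only Pdgfrb was, at 0.755 CPM in the first control library of total mRNA against 3035 CPM for the macrophage receptor gene Csf1r. CPM is the count of a gene scaled to the sum of the library's counts. Of the 56 members, 47 had at least 10 counts in every library and the lowest single count was 1.

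The family took 0.282%, 0.195% and 0.2498% of the counted reads of control total mRNA in experiments 1, 2 and 3. With LPS these shares were 0.0444%, 0.0862% and 0.0564%, and with LPS and torin1 0.0672%, 0.0656% and 0.0593%. All 3 control libraries lay above all 6 libraries with LPS. In polysome-associated mRNA the shares were 1.47%, 0.813% and 1.07% in control cells, 0.196%, 0.349% and 0.125% with LPS, and 0.151%, 0.427% and 0.0894% with LPS and torin1. The same order held, and each polysome library lay above the total library of its lysate. The LPS share was lower than the control share by a factor of 6.35, 2.26 and 4.43 in total mRNA and of 7.48, 2.33 and 8.60 in polysome-associated mRNA. Experiment 2 had the lowest control shares and the highest LPS shares in both RNA types, so its difference was the smallest. Fewer cells in S phase and less histone mRNA in each such cell cannot be told apart in these bulk samples.

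**Figure D1:**
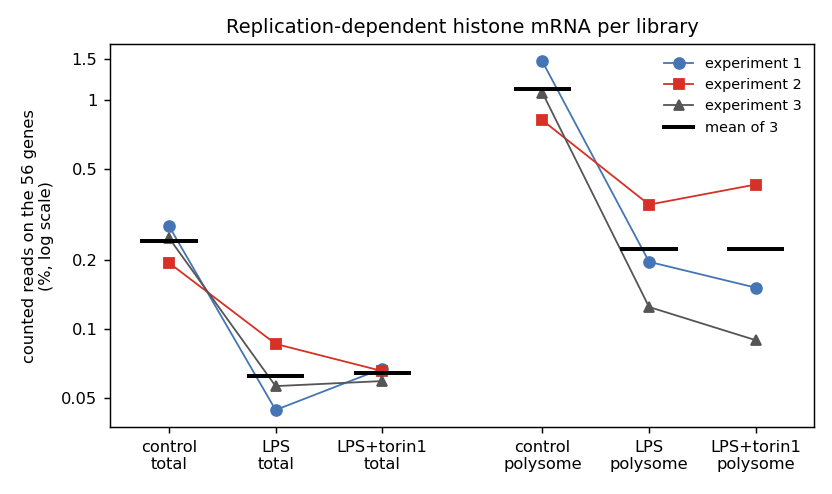
Percent of counted reads on the 56 genes (log scale) in each of the 18 libraries, with lines joining the treatments of an experiment and bars at the mean of 3. Control libraries lie above the LPS libraries of the same RNA type, and experiment 2 has 0.427% in LPS with torin1 polysomes, where experiments 1 and 3 have 0.151% and 0.0894%.

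The 5 classes differed in the same direction. In total mRNA, H1 took 0.127% ± 0.0176 (SD, n = 3) of the reads in control cells and 0.0290% ± 0.00931 with LPS. H4 took 0.0490% ± 0.0162 and 0.0149% ± 0.00776, H2B 0.0434% ± 0.00610 and 0.0122% ± 0.00297, H3 0.0154% ± 0.00300 and 0.00405% ± 0.00105, and H2A 0.00696% ± 0.00169 and 0.00226% ± 0.000712. H4, the class that pairs with H3 in the nucleosome core, was the most variable between experiments. Its LPS share of total mRNA was lower by a factor of 6.56 in experiment 1 and 4.57 in experiment 3 but 1.35 in experiment 2, and in polysome-associated mRNA by 8.98, 12.9 and 1.47. For H1 the factors of total mRNA were 7.15, 2.81 and 4.602.

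In the fit to each gene, which scales libraries by the trimmed mean of M-values (TMM), the change with LPS was below 0 for all 56 members in total mRNA (median −1.49 on the log2 scale, range −2.43 to −0.33) and likewise in polysome-associated mRNA (median −2.12, range −3.19 to −0.48). Over all 11243 genes the medians were −0.018 and −0.031. At the study's FDR of 0.25, 54 members were lower in total mRNA, where 34.3% of all genes were called lower, and 55 in polysome-associated mRNA, where 28.7% were. Because the family was proposed from this contrast, nothing is read from these counts. Without experiment 1, 30 members were past the FDR in polysome-associated mRNA. For fits with an experiment left out, here and below, the share of all genes called is not given. Such counts therefore do not separate the family from a general loss or gain of calls. The exceptions were Hist1h4m (−0.33 ± 0.60, SE) and Hist1h2ad (−0.59 ± 0.47, past the FDR with the experiment as a block) in total mRNA and Hist3h2a (−0.48 ± 0.34) in polysome-associated mRNA. Within experiments, 50 members were lower with LPS in all 3 in total mRNA, and 53 were in polysomes. These counts use CPM without TMM, where the median of all genes was itself lower, by −0.36 in total and −0.35 in polysome-associated mRNA. The share of all genes lower in all 3 is not given.

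**Figure D2:**
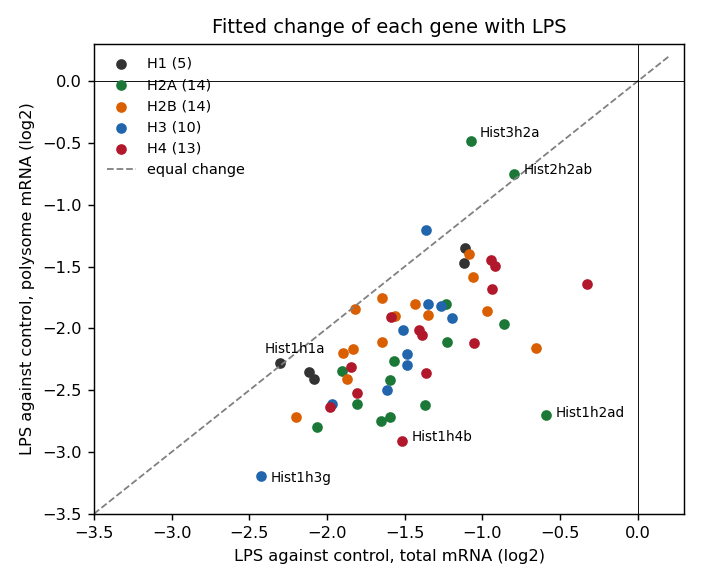
Fitted log2 change with LPS against control in total mRNA (x axis) and polysome-associated mRNA (y axis) for each of the 56 genes, coloured by class with the number of genes in parentheses. Most points lie under the line of equal change, and Hist3h2a is the point nearest to 0 in polysome-associated mRNA, at −0.48.

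Hist1h1a, a linker histone gene and the H1 member with the most reads, stood at 419, 405 and 396 CPM in control total mRNA, at 54.4, 63.8 and 73.7 with LPS, and at 51.2, 49.7 and 43.0 with LPS and torin1. In polysome-associated mRNA the values were 1541, 1294 and 1190 CPM in control cells, 225, 232 and 192 with LPS, and 129.4, 189 and 84.7 with LPS and torin1. Its replicates lay close together except in polysomes with LPS and torin1, where they ran from 84.7 to 189. The 3 groups did not overlap in either RNA type, though in polysomes the lowest LPS value, 192, was near the highest with torin1, 189. Its LPS change was −2.30 ± 0.12 in total and −2.28 ± 0.27 in polysome-associated mRNA. No window of 50 bases in Hist1h1a occurred in another gene, so its count is not subject to the doubt about copies.

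Hist1h2bb, the H2B gene with the most reads, had 98.9, 103 and 108 CPM in control total mRNA and 26.4, 31.9 and 30.4 with LPS, a change of −1.44 ± 0.10. Its polysome-associated mRNA was at 573, 501 and 476 CPM in control cells and at 120, 154 and 72.5 with LPS (−1.81 ± 0.40). The groups were far apart, and experiment 2 did not stand out in control cells. Hist1h4d, in contrast, had 150, 55.8 and 111.8 CPM in control total mRNA and 22.1, 82.7 and 24.9 with LPS. In experiment 2 its LPS library was thus above its control library, and the change of −0.92 ± 0.47 carried the wider error. Its polysome-associated mRNA was at 966, 351 and 675 CPM in control cells and 144, 350 and 63.5 with LPS, nearly equal in experiment 2.

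Hist1h3e, the H3 gene with the most reads, had 29.8, 18.5 and 27.1 CPM in control total mRNA and 5.73, 12.4 and 7.34 with LPS, which do not overlap. In polysomes it had 244, 106.5 and 178 CPM against 30.1, 66.0 and 14.2. For the H2A gene Hist2h2ac the total values were 25.2, 16.95 and 22.7 CPM against 6.08, 9.81 and 5.45, and the polysome values 158, 75.4 and 122 against 22.4, 46.0 and 11.8. In both genes experiment 2 again had the lowest control and the highest LPS value.

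In polysome-associated mRNA, LPS gave the lowest changes in Hist1h3g (−3.19 ± 0.70), Hist1h4b (−2.91 ± 1.17) and Hist1h2af (−2.79 ± 0.52), genes of H3, H4 and H2A. Hist1h3g polysome mRNA was at 209, 75.3 and 166 CPM in control cells and 9.45, 21.98 and 7.34 with LPS. Hist1h4b fell out of this pattern in experiment 2, with 12.9 CPM in control and 13.3 with LPS, where the other experiments had 113.3 and 42.3 against 3.04 and 1.34. Hist1h2af shares 94.0% of its windows of 50 bases with other genes. The changes nearest to 0 were those of Hist3h2a (−0.48 ± 0.34), Hist2h2ab (−0.75 ± 0.43) and Hist2h3c2 (−1.20 ± 0.44), all outside the chromosome 13 clusters. The place was not particular to them. Hist4h4 and Hist2h4, also outside, went from polysome means of 537 and 412 CPM in control cells to 85.1 and 86.4 with LPS. Hist2h2ac and Hist2h2be on chromosome 3 were lower as well.

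Translation efficiency, the change in polysome-associated mRNA beyond that in total mRNA, had a median of −0.58 for LPS over the members and 0.002 over all genes. In the edgeR interaction test 0 members and 0% of all genes passed the FDR of 0.25. At that FDR the study, using the method anota2seq, reported changed efficiency for a subset of mRNAs with LPS. A test that called 0 genes is therefore not read as absence of a change. At an unadjusted p under 0.05, 1 member was found, DESeq2 called 0, and an analysis of partial variance called 1 lower. The contrast is the one from which the family was proposed, so these too are descriptions.

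The next question was how much of each message sat in heavy polysomes. The comparison of polysome-associated with total mRNA in LPS with torin1 contrasts no library of the observation from which the family was proposed. Its standard errors and p-values come from a model over all 18 libraries, so they do draw on libraries of that observation. Here 52 of 56 members were higher in polysome-associated mRNA and 2 were lower at an FDR of 0.25 (edgeR quasi-likelihood test), where 27.8% of all genes were called higher and 27.8% lower. The median over the members was 1.84 on the log2 scale, against 0.005 over all genes. The level is relative to the average message of a library, since polysome yield is not in the counts. Without experiment 2, 39 members were higher. The family shares in polysomes were higher than those in total mRNA by a factor of 2.25, 6.51 and 1.51 in experiments 1, 2 and 3, so the size of the difference varied by experiment while its direction did not. Within experiments, 47 members were higher in all 3 and 2 were lower in all 3. The share of all genes that were so is not given.

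The class medians ran from 1.45 in H1 over 1.73 in H2A, 1.78 in H2B and 1.93 in H3 to 2.36 in H4. Differences between classes were not tested. Of the genes with the most reads, Hist1h4d was higher by 2.33 ± 0.76 (adjusted p = 0.0283), Hist1h3e by 2.08 ± 0.60 (adjusted p = 0.0152), Hist2h2ac by 1.84 ± 0.52 (adjusted p = 0.0130), Hist1h2bb by 1.81 ± 0.31 (adjusted p = 0.000598) and Hist1h1a by 1.46 ± 0.21 (adjusted p = 0.000176). All 5 passed in every alternative tried. The highest estimate was that of Hist1h4b, 3.03 ± 1.28 (adjusted p = 0.0833), which lost its call without experiment 2.

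In control and LPS cells, whose polysome libraries entered the observation behind the choice, the medians are given as a description. They were 2.52 and 1.92, with 53 and 52 members past the FDR upwards, where 36.3% and 34.1% of all genes were. Of the 50 genes with the highest polysome level relative to total mRNA, 46 were members in control cells, 38 in LPS and 40 in LPS with torin1. Of the other genes with a coding length, 0% lay above the members' median in control and LPS cells and 0.0187% in LPS with torin1. Among 1879 other genes with a coding sequence of at most 672 bases, the medians were 0.302 in LPS with torin1, 0.408 in control and 0.426 in LPS, and 0% lay above the members' median. The 64 ribosomal protein genes among them, whose messages are translated under mTOR control, had medians of 0.043, 0.547 and 0.631 in the same order.

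**Figure D3:**
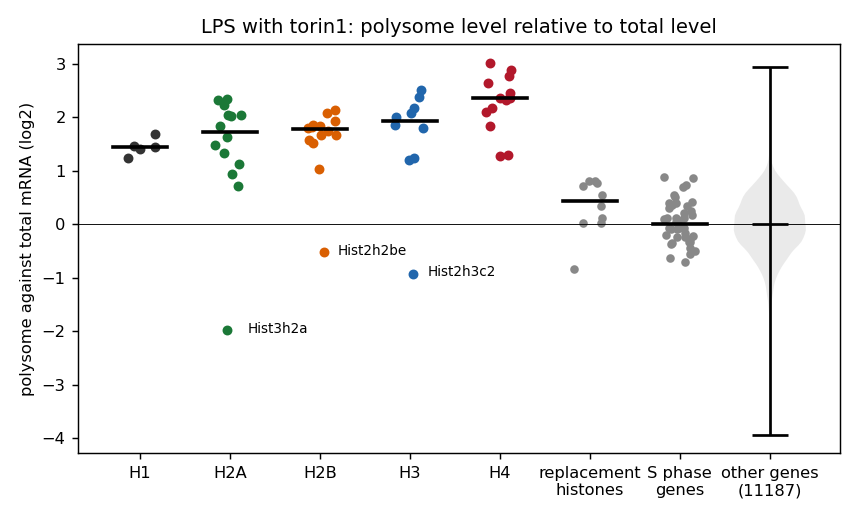
Fitted log2 difference of polysome-associated against total mRNA in LPS with torin1, with a point per gene and bars at medians for the 5 histone classes, replacement histone genes and S phase genes, and a violin with median and range for the 11187 other genes. The members' median is 1.84, and Hist3h2a, Hist2h3c2 and Hist2h2be lie below 0.

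Members that went against the family were few. Hist3h2a, an H2A gene on chromosome 11, was lower in polysome-associated than in total mRNA in LPS with torin1, with a difference of −1.98 ± 0.52 (adjusted p = 0.00894). Its values in that group were 2.37, 1.75 and 0.559 CPM in total mRNA and 0.466, 0.444 and 0.293 in polysome-associated mRNA, which do not overlap. In control cells they were 6.94, 3.69 and 2.14 CPM against 0.824, 0.829 and 1.16, and with LPS 2.37, 1.28 and 1.00 against 0.515, 0.650 and 0.408. Its transcript carries the hairpin and 1643 annotated bases behind it, with AATAAA near the end. Annotated genes on either strand, Trim17 and Gm44313, overlap it, and whether the counting used the strand is not given in the sources used here.

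Hist2h3c2, an H3 gene on chromosome 3, was also lower in LPS with torin1, with a difference of −0.92 ± 0.44 (adjusted p = 0.123), with 1.80, 0.593 and 0.953 CPM in total and 0.613, 0.617 and 0.545 CPM in polysome-associated mRNA. Its groups overlap, and the call was lost without experiment 1 and without experiment 3. Hist2h3c2 shares 63.5% of its windows of 50 bases with other genes, and its lowest library had 6 counts. In control and LPS cells the differences were −0.35 ± 0.40 and −0.19 ± 0.45, neither past the FDR. Hist2h2be, an H2B gene of the same locus that was singled out after its values were seen, had 5.71, 3.90 and 2.47 CPM against 3.21, 3.604 and 1.72, a difference of −0.52 ± 0.37 (adjusted p = 0.301). With the lysate as a block it passed, at −0.51 (adjusted p = 0.0375), which makes 3 members lower, where 35.6% of all genes were called lower with the block. In control cells it had 17.2, 10.2 and 9.17 CPM in total against 10.6, 6.50 and 6.64 in polysome-associated mRNA (−0.60 ± 0.36), and with LPS 3.33, 2.34 and 2.32 against 2.06, 2.16 and 0.959 (−0.63 ± 0.39). Both differences were past the FDR without the block, and the groups overlap in control cells but not with LPS. Hist2h2be shares no window of 50 bases with another gene, has no hairpin match in its 2192 bases after the stop codon and ends near AATAAA. The remaining member without a call was Hist1h2ag, at 0.72 ± 0.68. Hist4h4 and Hist1h1d, with 2445 and 4884 annotated bases behind their hairpins, were among those called higher. Also called higher were Hist1h1c and Hist2h4, which end near AATAAA, and Hist1h2bp, which does so and has no hairpin match. These traits were therefore not particular to the exceptions.

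Torin1 was added to ask how inhibition of mTOR alters the response to LPS. In total mRNA, 2 members rose and 7 fell with torin1 against LPS at an FDR of 0.25 (edgeR), where 27.3% of all genes were called higher and 26.4% lower. The members' shares of 3.57% and 12.5% thus lie below the background. With the experiment as a block, which fits how the total libraries deviate together, 7 rose and 6 fell, where 32.6% and 31.4% of all genes did, and 8 of the 9 members called without the block were called with it. The members' median was −0.13, against 0.001 over all genes. The family shares with torin1 over LPS were 1.51, 0.761 and 1.05 in experiments 1, 2 and 3, so they did not move one way. Without experiment 2, 15 members were higher and 3 lower, and without experiment 1, 1 was higher and 11 lower. Without experiment 3 the numbers were 0 and 4. These 3 fits also have no share of all genes beside them.

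Hist1h1a had the smallest p. It changed by −0.48 ± 0.11 in total mRNA (adjusted p = 0.0105), with the groups not overlapping, and it passed without any one experiment and at an FDR of 0.05. The H3 gene Hist1h3a changed by −0.65 ± 0.24 (adjusted p = 0.0620), from 2.68, 4.74 and 3.18 CPM to 2.37, 2.62 and 2.07, and passed without any one experiment. The H2A genes Hist1h2ae (−0.64 ± 0.27, adjusted p = 0.106) and Hist1h2ad (−1.23 ± 0.57, adjusted p = 0.132) fell as well. Hist1h2ae went from 0.748, 0.981 and 1.18 to 0.833, 0.655 and 0.460 CPM, and Hist1h2ad from 0.374, 0.191 and 0.602 to 0.128, 0.125 and 0.263 CPM, with its lowest library at 4 counts. The groups overlap in both, and each lost its call without 1 or more experiments. Hist1h4a, Hist1h4n and Hist2h4 were the other members that fell, at adjusted p from 0.192 to 0.242, and the call of Hist1h4a was lost with the block (adjusted p = 0.270).

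The linker histone gene Hist1h1d and the H3 gene Hist1h3d rose with torin1. Hist1h1d went from 24.6, 64.5 and 39.1 CPM with LPS to 67.1, 66.7 and 66.0 with torin1 (0.58 ± 0.29, adjusted p = 0.157), and Hist1h3d from 3.12, 2.29 and 2.55 to 4.30, 3.21 and 3.71 CPM (0.42 ± 0.20, adjusted p = 0.136). Neither pair of groups overlaps, and the call of Hist1h3d was lost without experiment 3 and that of Hist1h1d without experiments 1 and 3. With the block Hist1h1c, Hist1h3c, Hist1h2bb, Hist2h2be and Hist2h3c2 also rose, by 0.15 to 0.55. Within H1, then, Hist1h1a fell while Hist1h1d rose, and all 13 H4 genes had estimates below 0 in total mRNA (median −0.46), of which 3 passed the test. The summed H4 share with torin1 over LPS was 1.38, 0.516 and 1.03 in experiments 1, 2 and 3, so it was lower in experiment 2 only. The difference between genes was not tested.

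In polysome-associated mRNA, 1 member fell with torin1 against LPS and 0 rose, where 18.2% of all genes were called lower and 20.3% higher. The one was Hist1h1a, at −0.75 ± 0.26 (adjusted p = 0.0780), with groups that do not overlap, and the call was lost without experiment 1 and without experiment 3. At an unadjusted p under 0.05 it was again the only member, and DESeq2 likewise called 1 lower and 0 higher. The members' median was −0.07, against 0 over all genes. Without experiment 2, 22 members fell, and without experiment 1 or 3 none did. The share of all genes called in these fits is not given, so nothing is read from the counts about the family. The family shares with torin1 over LPS were 0.771, 1.22 and 0.716, so experiment 2 went the other way. In translation efficiency, 0 members and 0% of all genes passed for torin1 against LPS by edgeR. At an unadjusted p under 0.05, 0 members were found, and 0 were called higher by DESeq2 or by the analysis of partial variance. With the lysate as a block, 25 of all genes were called lower, and 0 members. The study, using anota2seq, reported that torin1 nearly reversed the changes in efficiency seen with LPS. The edgeR result is therefore not read as absence of a change in the members.

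**Figure D4:**
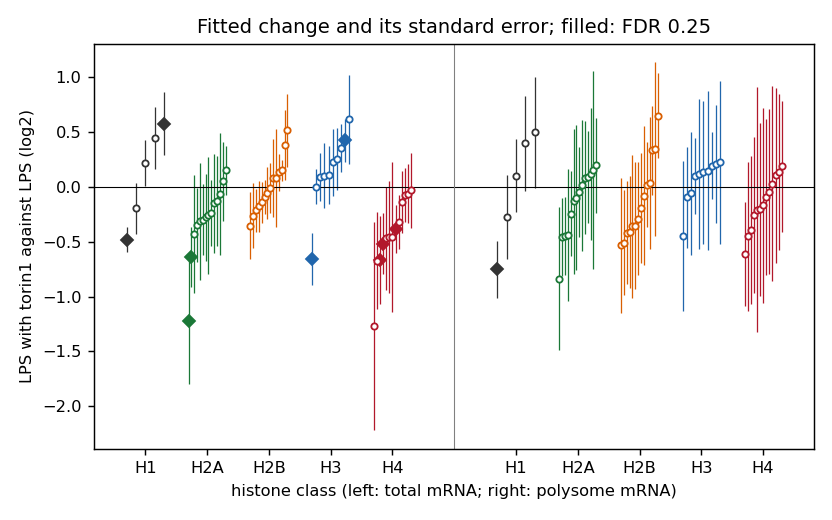
Fitted log2 change of LPS with torin1 against LPS for each member, by class, in total mRNA (left) and polysome-associated mRNA (right), with standard errors as bars. Filled diamonds pass an FDR of 0.25, which are 9 members in total mRNA and 1, Hist1h1a, in polysome-associated mRNA.

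Against control the family was also lower with LPS and torin1. Of the members, 54 fell in total mRNA (33.6% of all genes were called lower) and 55 in polysomes (29.7%), with medians of −1.54 and −2.20. Without experiment 1, 33 fell in polysome-associated mRNA. This comparison shares the control libraries with the one from which the family was proposed. Hist1h2bq and Hist1h4m did not pass in total mRNA, and Hist2h2ab did not in polysome-associated mRNA (−0.56 ± 0.43, adjusted p = 0.344).

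Genes that act with these histones were read from lists. Over all 11243 genes, 34.3% were called lower and 3616 genes higher with LPS in total mRNA, and 28.7% lower in polysome-associated mRNA. With torin1 against LPS, 27.3% of all genes rose and 26.4% fell in total mRNA, and 18.2% fell in polysome-associated mRNA. Of 42 S phase genes, all in the table, 41 were lower with LPS in either RNA type, at medians of −1.19 and −1.16. Their polysome level followed their total level, with a median of 0.0003 for polysome-associated against total mRNA in LPS with torin1. In that comparison 12 were called higher and 11 lower, where 27.8% of all genes were called higher and 27.8% lower. With torin1 against LPS, 25 fell and 3 rose in total mRNA and 19 fell in polysome-associated mRNA, at medians of −0.34 and −0.32. Tyms, for thymidylate synthase, changed by −0.93 ± 0.09 (adjusted p = 0.000157), Cdc6, which licenses replication origins, by −0.88 ± 0.13 (adjusted p = 0.00132), Rrm2, a ribonucleotide reductase subunit, by −0.82 ± 0.21 (adjusted p = 0.0167) and Mcm6, a helicase subunit, by −0.77 ± 0.16 (adjusted p = 0.00656). S phase genes and histone genes were thus both lower with LPS. Whether the share of cells in S phase has a part in the histone values was not tested.

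For LPS against control, experiment 2 did not stand apart in the S phase genes. Within experiments 1, 2 and 3, the median difference of log2 CPM with LPS in polysome-associated mRNA was −1.71, −1.41 and −1.40 for the S phase genes and −2.89, −1.05 and −3.19 for the histone genes. In total mRNA the values were −1.69, −1.48 and −1.41 against −2.21, −0.98 and −1.81. For polysome-associated against total mRNA the S phase medians were 0.08, −0.19 and 0.13 in LPS and 0.083, −0.13 and 0.034 in LPS with torin1, so there experiment 2 alone was below 0. CPM without TMM also moved the median of all genes, by −0.36 in total and −0.35 in polysome-associated mRNA.

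**Figure D5:**
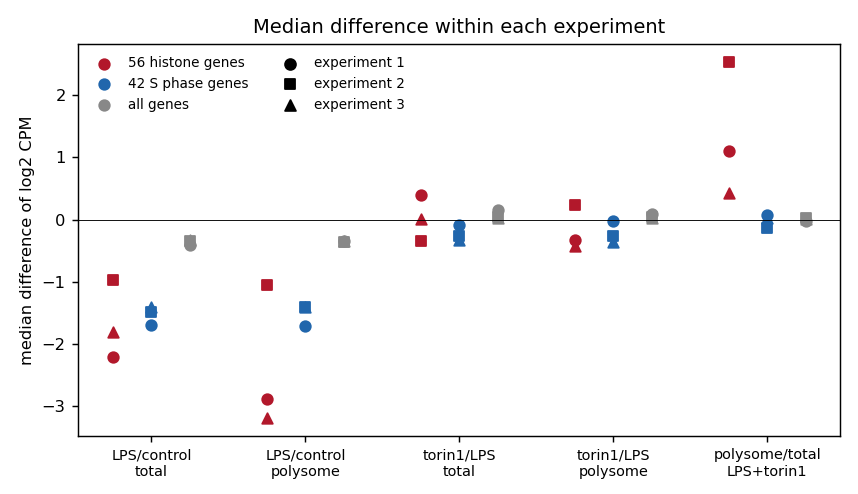
Median difference of log2 CPM within each experiment for the 56 histone genes, 42 S phase genes and all genes, in 5 comparisons along the x axis, with the experiments as symbols. The histone medians spread from −3.19 to −1.05 for LPS against control in polysomes, where the S phase medians spread from −1.71 to −1.40.

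Replacement histone genes, whose mRNAs are mostly polyadenylated and are not confined to S phase, serve as a contrast. Of the 11 listed, 10 were in the table. With LPS, 6 were lower and 2 higher in total mRNA (median −0.57), where 34.3% of all 11243 genes were called lower and 3616 genes higher. H3f3b, for histone H3.3, was at 631, 593 and 506 CPM in control total mRNA, 802, 947 and 676 with LPS and 539, 581 and 403 with LPS and torin1. With torin1 against LPS 4 rose and 3 fell, where 27.3% of all genes were called higher and 26.4% lower. H3f3b changed by −0.74 ± 0.17 (adjusted p = 0.00972), and H1f0, for the linker histone H1.0, rose by 0.74 ± 0.19 (adjusted p = 0.0167), as did H2afv by 0.68 ± 0.15 (adjusted p = 0.00691), an H2A.Z gene. The largest estimate, 1.33 ± 0.57 for H2afy2, a macroH2A gene, rests on under 0.4 CPM in every library (adjusted p = 0.106). Polysome-associated against total mRNA in LPS with torin1 had a median of 0.44, against 1.84 in the replication-dependent genes. Of the 10, 5 were called higher and 1 lower, where 27.8% of all genes were called higher and 27.8% lower.

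Of 21 genes for the making and decay of histone mRNA, 8 were lower and 6 higher with LPS in total mRNA. Over all 11243 genes, 34.3% were called lower and 3616 genes higher, so the list lay near the background. Slbp was at 94.0, 75.1 and 82.9 CPM in control, 41.7, 39.4 and 34.2 with LPS and 31.5, 28.2 and 27.2 with LPS and torin1, and Npat at 96.3, 82.6 and 93.2, then 42.9, 36.7 and 38.0, then 54.2, 45.6 and 50.9. The groups of each gene did not overlap. Torin1 against LPS moved them in opposite directions. Slbp changed by −0.48 ± 0.12 (adjusted p = 0.0133) and Npat rose by 0.28 ± 0.11 (adjusted p = 0.0698). In the list 5 rose and 7 fell, where 27.3% of all genes were called higher and 26.4% lower. Among them were Zfp473, which encodes a part of the histone 3′ end processing complex (0.90 ± 0.27, adjusted p = 0.0317), Zcchc11, a terminal uridylyltransferase (0.59 ± 0.09, adjusted p = 0.00158), Ncbp1, a cap-binding subunit (−0.59 ± 0.10, adjusted p = 0.00184) and Cpsf2, a subunit of the cleavage factor (−0.53 ± 0.13, adjusted p = 0.0114).

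Of 18 histone chaperone genes, 14 were lower and 2 higher with LPS in total mRNA, where 34.3% of all 11243 genes were called lower and 3616 genes higher. Daxx, a chaperone of histone H3.3, was among the higher ones, at 2.63 ± 0.26. With torin1 against LPS 12 fell and 2 rose, where 26.4% of all genes were called lower and 27.3% higher. Daxx changed by −1.21 ± 0.25 (adjusted p = 0.00570), Hat1, an acetyltransferase of new H4, by −0.54 ± 0.11 (adjusted p = 0.00581) and Nasp, which binds H3 and H4, by −0.49 ± 0.10 (adjusted p = 0.00564), while Asf1a, an H3 and H4 chaperone, rose by 0.49 ± 0.12 (adjusted p = 0.0124).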

How the data were processed

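Counts per gene were analysed in 18 libraries of total and polysome-associated mRNA from RAW264.7 cells. The authors used the nextflow RNAseq pipeline at default settings, with Hisat2 to align read pairs to GRCm38 and featureCounts with an Ensembl annotation to count them. They kept protein-coding genes without a 0 in any library, although Hist1h2al is a processed pseudogene in GENCODE M21. The deposited values are raw counts, without normalization. The versions of Hisat2 and featureCounts, and what those defaults do with reads of several matches, are not given in the sources used here. Samples were grouped by the labels, which give treatment, RNA type and experiment.

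Members were matched by symbol. Differences were tested in R 4.3.3 with edgeR 4.0.16 (quasi-likelihood test, TMM), with 1 model per RNA type over its 9 libraries and 3 treatments. Polysome-associated against total mRNA and translation efficiency (the interaction, fold of at least 1.2) used a model of 6 groups over 18 libraries. P-values were adjusted by Benjamini-Hochberg over all 11243 genes, at the study's FDR of 0.25. The study used anota2seq, which was not installed, so an analysis of partial variance was written with limma 3.58.1 (pseudocount 0.5) as an alternative. The others were DESeq2 1.42.0 and its size factors, each experiment left out, a block, an FDR of 0.05, a filter at 10 counts and models of only the treatments compared. Scripts were tested on simulated data. Nothing in the labels says that experiments were more than separate cultures of a line, so p-values measure the spread between these.

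Same-numbered total libraries deviated together (mean correlation 0.417, lowest 0.129), and total and polysome libraries share a lysate (0.581, lowest 0.483), so a block is given there. Among same-numbered polysome libraries the mean was 0.321 (lowest −0.139, highest 0.846), against −0.155 between different numbers. The main polysome fits did not take the number as a pairing, so they ignore what such libraries share. With the block in polysome-associated mRNA, 55 members were lower with LPS against control. For torin1 against LPS, 1 rose and 1 fell with it. Named genes were the most counted of each class, the 3 lowest and 3 highest changes with LPS in polysome-associated mRNA, up to 6 with the smallest p for torin1 in each RNA type, Hist1h2ad, up to 4 of each list with the largest change for torin1, Slbp and Npat. Other names were added after values were seen. The members and the lists were chosen with earlier results of these data known.

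Sequences came from GENCODE M21 transcripts and RefSeq promoters. Symbols matched 49 members to a promoter, and 10755 genes of the table to a coding length.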

Additional observations from a re-analysis of the deposited data

How the results depend on the processing

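Under the alternatives, 140 of the family's counts and shares kept within 1.5 times the count, or within 1 SD for a share, and 28 did not. In total mRNA the balance of calls turned for torin1 against LPS. The counts of 2 higher and 7 lower became 7 and 6 with the replicate block, 15 and 3 without experiment 2, 0 higher and 1 lower at an FDR of 0.05, and with an experiment left out 0 to 15 higher and 3 to 11 lower. In polysome-associated mRNA (0 higher, 1 lower) the replicate block gave 1 higher (Hist2h2be), an FDR of 0.05 gave 0 lower, and leaving out an experiment gave 0 to 22 lower. Leaving out an experiment gave 30 to 56 lower for LPS against control in polysome-associated mRNA, 33 to 56 for LPS with torin1 against control, and 1 to 2 lower for polysome-associated against total mRNA in each treatment. There, an FDR of 0.05 gave 1 lower in each treatment and the filter at 10 counts, which kept 47 members, gave 1 in LPS with torin1. The partial variance analysis gave 1 lower for LPS in translation efficiency. No share of all genes is given for the fits with an experiment left out. Without its most counted member the family took 0.0592% of total mRNA with LPS and torin1, against 0.0640%. The cause of these differences was not tested, apart from the fewer genes or samples by construction. The block in polysome-associated mRNA also brought Hist2h2ab past the FDR in LPS with torin1 against control (adjusted p = 0.147). Of the values for members named by the rule, 880 kept their side of the threshold and 67 lost the call, none of these with the block, while Hist1h4a, which is outside the rule, lost its call with it for torin1 in total mRNA (adjusted p = 0.270). Low counts limit the 9 members under 10 counts in a library.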
